A study of Mus musculus with 6 samples.

Results

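The genes described here are the 3 retinoic acid receptors Rara, Rarb and Rarg, their partner Rxra, and 5 genes that carry or convert retinoids: Crabp1, Crabp2, Rbp4, Cyp26b1 and Dhrs3. They were taken by name, as every array probe whose RefSeq accession belongs to 1 of these 9 genes. This gave 12 probes of 55681 and 9 genes of the 20145 named on the array, and all 12 probes passed the filter on dim signals. RNA came from cortical cells of C57BL/6N mouse embryos labelled as neural progenitor cells and aged E12.5, counted in embryonic days. In the phenobarbital group, dams were injected intraperitoneally with 80 mg/kg phenobarbital, a barbiturate drug that strengthens GABA-A receptor signalling, made up at 8 mg/mL in saline, and control dams received saline alone. In both groups the paired injections were 6 h apart on embryonic days 10 to 11, the cortex was taken on day 12 by the protocol text, and the dissociated cells lay on poly-L-ornithine and fibronectin for 4 h before RNA isolation. Each group holds 3 arrays of 1 colour, and whether the replicates are separate litters is not stated in the labels. The p-values therefore reflect the spread among these arrays, part or all of which may be technical. The drug was given to the dam, and the labels do not give its level in the embryo.

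Retinoic acid is made from vitamin A inside cells and enters the nucleus, where it binds receptors of the RAR family paired with an RXR on short repeated DNA motifs and changes the transcription of nearby genes. Cells set their retinoic acid level by supply and by clearance: Rbp4 carries retinol in the blood, Dhrs3 turns retinaldehyde back into retinol, the Crabp proteins bind retinoic acid in the cytoplasm, and Cyp26b1 oxidises it for disposal. In the embryonic forebrain, retinoic acid acts on patterning and neuronal differentiation, and the meninges around the cortex are a known source.

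Rarb is both a receptor and a textbook target of retinoic acid, so its promoter is shown beside that of Rxra, the gene that passed the test below. The 250 bases before each start site are given 5′ to 3′ from RefSeq on GRCm38.p6, for Rarb at chr14:16575477-16575726 on the minus strand and for the first listed Rxra start at chr2:27676951-27677200 on the plus strand. Capitals mark a direct repeat of the hexamer AGGTCA or a variant of it (AGTTCA as 1 variant, GGGTCA as another, or else GGTTCA as the last), in any combination, spaced by 1, 2 or 5 bases and searched on both strands.
Rarb: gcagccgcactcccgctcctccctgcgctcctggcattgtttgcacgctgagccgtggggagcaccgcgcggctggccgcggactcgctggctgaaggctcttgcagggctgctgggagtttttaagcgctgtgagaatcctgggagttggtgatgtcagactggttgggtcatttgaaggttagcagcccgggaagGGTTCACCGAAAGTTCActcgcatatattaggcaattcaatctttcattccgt
Rxra: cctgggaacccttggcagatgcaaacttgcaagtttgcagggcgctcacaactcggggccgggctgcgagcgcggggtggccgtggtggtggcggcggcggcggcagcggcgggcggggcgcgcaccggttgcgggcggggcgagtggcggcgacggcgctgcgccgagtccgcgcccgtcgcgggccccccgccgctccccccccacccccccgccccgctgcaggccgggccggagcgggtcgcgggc
The capitals in Rarb are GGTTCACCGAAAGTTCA, a repeat with a spacer of 5 bases at -53 to -37 from the start. Of the 9 genes, 8 had promoters in the RefSeq table (Crabp2 was missing), 16 promoters in all, and the Rarb promoter was the 1 that held such a repeat in the window from 250 bases before to 50 after the start. Among all 32851 promoters of the table, 0.0974% held a repeat with a spacer of 5 and 0.588% held 1 of any of these spacings. A match of letters is a description, not a site shown to be bound here.

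Between phenobarbital and control embryos, 1 of the 9 genes passed the test: Rxra rose by 0.51 ± 0.13 (SE) on the log2 scale, or 1.42-fold. No gene fell past the threshold and 8 did not pass, among them Crabp2 (-0.73 ± 0.29) and Cyp26b1 (-0.51 ± 0.17), whose phenobarbital arrays nevertheless all lay below the controls. The 1 call is 11.1% of the members, against 16.7% of all 25304 names tested (6.24% higher and 10.5% lower with phenobarbital). At an unadjusted p below 0.05 the members gave 3 genes, against 35.7% of all names, so neither share of calls exceeds the background. Groups did not overlap for 3 members (1 above and 2 below control), where 44.1% of all names showed such a gap (11.7% above and 32.4% below). Of the 9 differences, 6 were negative and 3 positive, with a median of -0.21 on the log2 scale, against a median of -0.16 over all names. Tests used limma across all names, with phenobarbital minus control as the direction. Levels are log2 signal relative to each array's 75th percentile, which is 0, and they can be compared between arrays for 1 probe but not between probes. In these bulk samples, fewer cells of a type and less RNA per cell cannot be told apart.

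**Figure D1:**
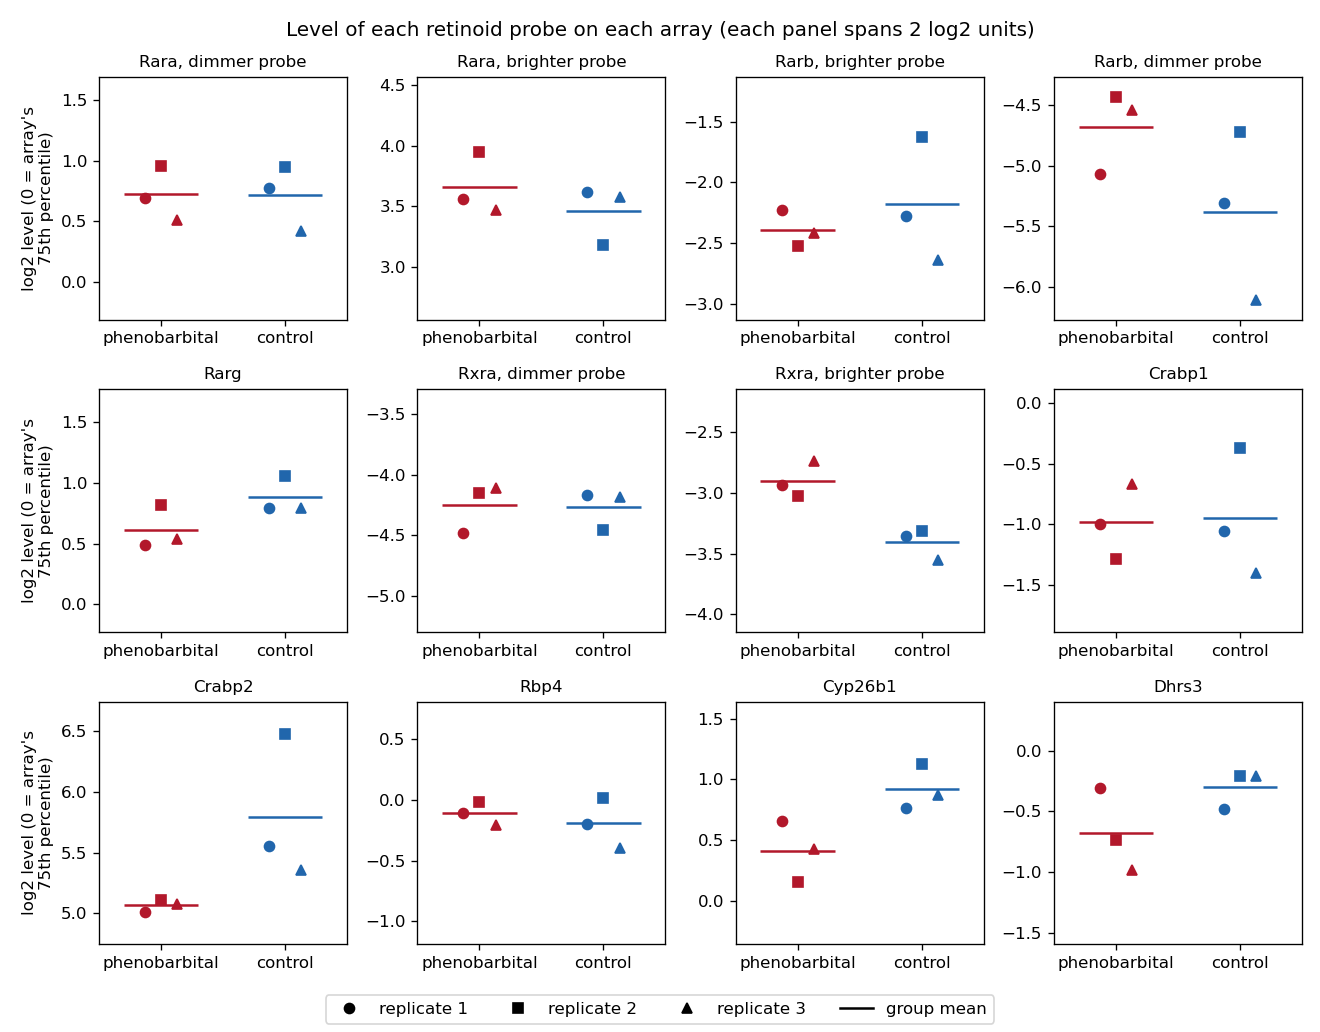
Level of each of the 12 probes on each array (y axis, log2 signal relative to the array's 75th percentile), with the phenobarbital arrays left of the controls, points shaped by replicate and lines at group means. The groups are apart for the brighter Rxra probe, Crabp2 and Cyp26b1, and control replicate 2 (square) is the highest control for 7 of the 9 genes as tested.

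Rxra encodes a retinoid X receptor, the partner that RARs and several other nuclear receptors need to bind DNA. Its brighter probe read -2.93, -3.03 and -2.74 on the phenobarbital arrays, against -3.35, -3.32 and -3.55 on the controls. Every phenobarbital array was above every control, and the spread within each group was small, with means of -2.90 ± 0.15 with phenobarbital and -3.41 ± 0.13 in controls (SD, n = 3 each). The difference passed the threshold (limma, adjusted p = 0.0413), with a 95% interval of 1.16- to 1.75-fold. Its dimmer probe read -4.48, -4.15 and -4.11 with phenobarbital, against -4.17, -4.45 and -4.19 in controls. On that probe the groups overlapped and the difference was 0.023 ± 0.15 (SE), with an interval from -0.34 to 0.38, so the call rests on 1 of the 2 probes. With every probe tested on its own, the brighter Rxra probe was again the 1 member probe called of 12 (adjusted p = 0.0444), where 15.7% of all 34673 probes were called. The mean of both probes gave a difference of 0.27 with an adjusted p of 0.147. The brighter probe was itself dim, at 0.12 to 0.15 of the 75th percentile with phenobarbital and 0.085 to 0.10 in controls. Under normexp, another background correction, its difference was 0.26 (limma, adjusted p = 0.119). On slide 1 alone, which held all phenobarbital arrays and control replicate 1, the difference was 0.46 with an adjusted p of 0.232, where the lone control is assumed to vary like the phenobarbital arrays. With the slide as a random block it was 0.49, with an adjusted p of 0.0573.

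Rara, the receptor that most cell types express, gave a difference of 0.20 ± 0.18 (SE; adjusted p = 0.470). Its brighter probe read 3.56, 3.95 and 3.47 with phenobarbital, against 3.62, 3.18 and 3.58 in controls. The groups overlapped, with phenobarbital replicate 2 above and control replicate 2 below the other 4 arrays. The dimmer probe read 0.70, 0.96 and 0.51 with phenobarbital, against 0.78, 0.95 and 0.42 in controls. There the same replicate numbers stood highest and lowest in both groups, and the difference was 0.0077 ± 0.18. The interval of the brighter probe runs from -0.24 to 0.64 and leaves room for a change in either direction.

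Rarb, the receptor gene with the repeat shown above, gave a difference of -0.21 ± 0.26 (SE; adjusted p = 0.599). Its brighter probe read -2.23, -2.52 and -2.42 with phenobarbital, against -2.28, -1.62 and -2.64 in controls. Control replicate 2 was higher than the other 5 arrays, control replicate 1 lay among the phenobarbital values and control replicate 3 below them. The dimmer probe passed the filter only through the phenobarbital group, so its difference of 0.70 ± 0.36 is given as a value without weight. It read -5.07, -4.44 and -4.54 with phenobarbital, against -5.31, -4.72 and -6.10 in controls, where it was well above background on 2 of the 3 arrays. Control replicate 2 was again the highest control on that probe and lay among the phenobarbital arrays.

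Rarg, the third receptor, gave a difference of -0.27 ± 0.14 (SE; adjusted p = 0.216). It read 0.49, 0.82 and 0.54 with phenobarbital, against 0.79, 1.06 and 0.79 in controls. Phenobarbital replicate 2 lay just above 2 of the controls, so the groups overlapped. The interval ran from -0.60 to 0.067.

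**Figure D2:**
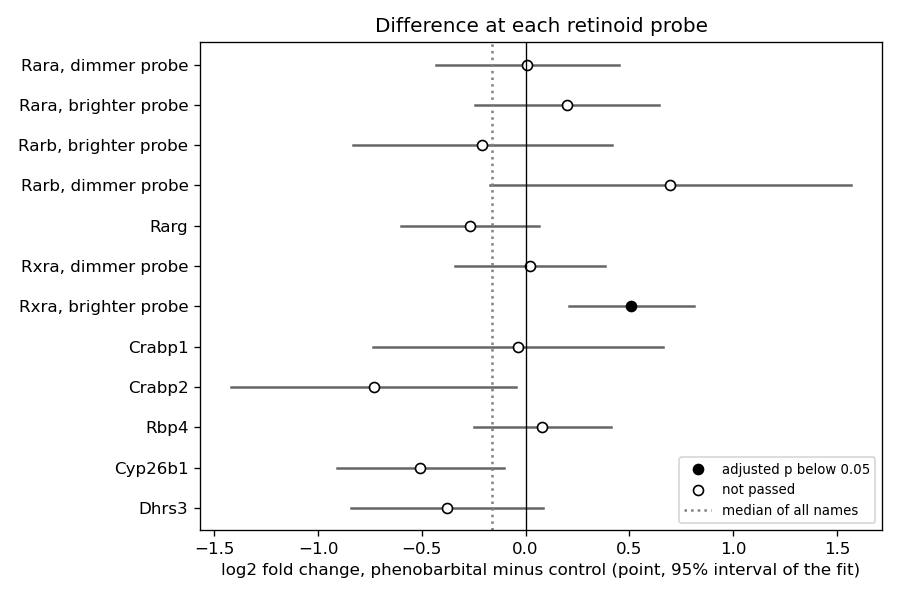
Difference between the groups at each of the 12 probes (x axis, log2 fold change, phenobarbital minus control, with the 95% interval of the fit), with filled points for an adjusted p below 0.05 and a dotted line at the median of all names, -0.16. The brighter Rxra probe is the 1 filled point, and the dimmer Rarb probe, at 0.70, entered only through the phenobarbital group.

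Crabp2, which carries retinoic acid to nuclear receptors, gave the largest difference among the 9 genes as tested, -0.73 ± 0.29 (SE), or 0.602 of the control level. It read 5.01, 5.11 and 5.07 on the phenobarbital arrays, against 5.56, 6.48 and 5.36 on the controls. All phenobarbital arrays were below all controls, but the spread differed: the means were 5.06 ± 0.048 with phenobarbital and 5.80 ± 0.60 in controls (SD, n = 3 each), and control replicate 2 stood 1.02 above the mean of the other controls. The adjusted p was 0.122 (limma), with an interval from -1.42 to -0.046. Without control replicate 2 the difference was -0.39 (adjusted p = 0.0612). With arrays weighted by their own spread around the fit it was -0.51 (adjusted p = 0.0401), a setting that called 9438 of 25304 names. On slide 1 alone it was -0.49 (adjusted p = 0.171).

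Crabp1, the other cytoplasmic binding protein, averaged nearly the same in both groups, with a difference of -0.036 ± 0.29 (SE; adjusted p = 0.944). It read -0.99, -1.28 and -0.67 with phenobarbital, against -1.06, -0.37 and -1.41 in controls. The controls spanned more than the phenobarbital arrays, with control replicate 2 at the top and control replicate 3 at the bottom of all 6. The interval from -0.74 to 0.66 allows changes in either direction, and without control replicate 2 the difference was 0.25.

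Rbp4, the retinol carrier of the blood, gave 0.081 ± 0.14 (SE; adjusted p = 0.704). It read -0.11, -0.017 and -0.21 with phenobarbital, against -0.20, 0.018 and -0.40 in controls. The groups overlapped, and the interval ran from -0.25 to 0.41. Without control replicate 3 the sign turned, to -0.022.

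Cyp26b1, the enzyme that clears retinoic acid, gave -0.51 ± 0.17 (SE), or 0.704 of the control level. It read 0.65, 0.16 and 0.43 with phenobarbital, against 0.76, 1.12 and 0.87 in controls. All 3 phenobarbital arrays were below all 3 controls, with means of 0.41 ± 0.25 with phenobarbital and 0.92 ± 0.19 in controls (SD, n = 3 each). The gap between the nearest arrays of the groups was narrow, and the adjusted p of 0.0824 missed the threshold (limma, interval -0.91 to -0.11). The difference kept its sign in all 20 alternatives, from -0.63 to -0.35, and passed in none of them. On slide 1 alone it was -0.35 (adjusted p = 0.394).

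Dhrs3, the retinaldehyde reductase, gave -0.38 ± 0.19 (SE; adjusted p = 0.206). It read -0.31, -0.74 and -0.99 with phenobarbital, against -0.48, -0.21 and -0.21 in controls. Phenobarbital replicates 2 and 3 were below every control, while phenobarbital replicate 1 lay among them. The interval ran from -0.84 to 0.084.

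The control arrays differed among themselves at these genes. Control replicate 2 was the highest control for 7 of the 9 and the lowest for Rara, while over all names it was highest in 41.7%. It stood above the mean of the other controls by 1.02 for Crabp2, 0.86 for Crabp1 and 0.84 for Rarb. A gap at least as high was found in 3.66%, 5.5% and 5.89% of all names, in the same order. For Crabp1 and Rarb the phenobarbital mean minus the other 2 controls was 0.25 and 0.071, less in size than the gap of control replicate 2 itself. A mean of 3 arrays varies less than 1 array, so these sizes are not on equal terms. For Rxra the phenobarbital arrays stood 0.55 above those 2 controls, and control replicate 2 stood 0.14 above them. Without control replicate 2 the median difference of the 9 genes was 0.060, against -0.21 with it.

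**Figure D3:**
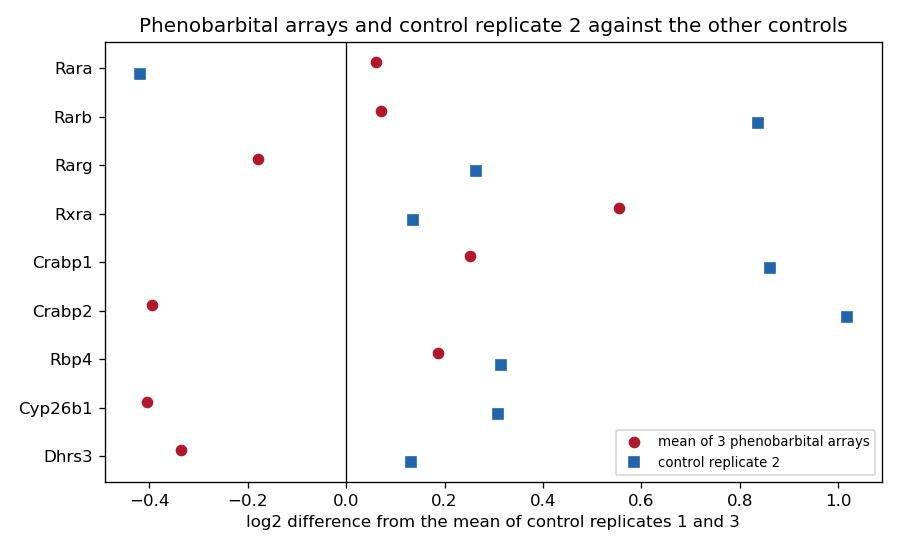
Mean of the 3 phenobarbital arrays (circles) and control replicate 2 (squares), each as a log2 difference from the mean of control replicates 1 and 3 (x axis). For Rxra the phenobarbital mean stands apart at 0.55. For Rara, Rarb, Rarg, Crabp1, Crabp2 and Rbp4 the distance of control replicate 2 is larger in size than that of the phenobarbital mean. The square is 1 array and the circle a mean of 3, which varies less.

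Marker genes of the cells a cortical dissection can hold were read in the same way. All 12 cortical progenitor markers passed the filter on dim signals. Emx1, a dorsal cortical marker, read 2.55 to 3.14 with phenobarbital, against 1.32 on control replicate 2 and 2.53 and 2.60 on the other controls. Dlx2, a marker of the ventral telencephalon, read -3.18 to -1.90 with phenobarbital, against -0.59 on control replicate 2 and -2.21 and -2.83 on the other controls. Emx1 and Dlx2 were picked after their values were seen, and not every marker of their lists ran the same way. Emx2, a further dorsal marker, was highest among the controls on control replicate 2 (0.75, against 0.43 and 0.27). Over all 12 cortical progenitor markers, control replicate 2 was the highest control for 3, with a median gap of -0.14 to the mean of the other controls. It was the highest control for 7 of 9 tested ventral telencephalon markers and 8 of 11 eye and diencephalon markers, against 41.7% of all names. The summed signal of the ventral list was nevertheless lowest on control replicate 2 (9.79, against 18.0 and 15.4 on the other controls). Sp8, a bright gene of that list, read 2.40 there, against 3.88 and 3.64. Control replicate 2 also led at 10 of 14 meninges and mesenchyme markers and 8 of 9 erythroid markers. Its meninges and mesenchyme sum, 76.8, lay between the 73.6 and 78.1 of the other controls. It led at 3 of 11 choroid plexus, 4 of 10 microglia and macrophage, 4 of 9 neuron, 5 of 10 endothelial and 3 of 4 neural crest markers. The part of these differences in the values of Crabp1, Crabp2 and Rarb on that array was not tested. Control replicate 2 also had a slide of its own, so slide and dissected tissue cannot be told apart there.

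Between the groups, 6 of 14 meninges and mesenchyme markers fell and 1 rose, with a summed signal (in units of the 75th percentile) of 56.0 to 63.0 with phenobarbital, against 73.6 to 78.1 in controls. Of 10 endothelial markers 4 fell (51.3 to 60.9 with phenobarbital, against 85.1 to 90.4 in controls). Much of that sum is Egfl7 (log2 level 4.50 to 4.85 with phenobarbital, against 5.35 to 5.46 in controls). Of these 10 differences, 7 were negative and 3 positive. Pecam1 was higher on every phenobarbital array (-2.38 to -1.53, against -2.86 to -2.65 in controls) but did not pass (limma, adjusted p = 0.0756). Of 9 erythroid markers 5 fell (629 to 681 with phenobarbital, against 967 to 1391 in controls). Much of that sum is the globins Hbb-y and Hba-a1, which fell by 0.66 and 0.62, while Hemgn differed by 0.0058. Of 9 neuron markers 5 fell (152 to 186 with phenobarbital, against 241 to 271 in controls). Of 11 choroid plexus markers 5 rose: Ttr, Kcne2, Otx2, Folr1 and Clic6, by 1.77 to 4.95 on the log2 scale. Kcne2 read -4.83 to -3.09 with phenobarbital, against -7.90 to -5.96 in controls, levels as low as those of probes not well above background. It appears to have entered the test only through the phenobarbital group, so its difference is given as a value without weight. The summed signal of that list was 52.5 to 57.9 with phenobarbital, against 38.4 to 53.0 in controls. Much of that sum is Igfbp2 (log2 level 5.04 to 5.32 with phenobarbital, against 5.14 to 5.60 in controls), which did not pass (-0.090 ± 0.16, adjusted p = 0.730). Crabp2 and Cyp26b1 were lower on the same arrays as most of the meninges, endothelial, erythroid and neuron markers. The part of those cells in the values of Crabp2 and Cyp26b1 was not tested. Of all names, 32.4% had every phenobarbital array below every control. The sums for 12 progenitor markers were 425 to 504 with phenobarbital and 525 to 584 in controls, with 1 gene that rose and 1 that fell. Of these 12 differences, 6 were negative and 6 positive, with a median of -0.014. Much of that sum is Vim, the gene that fell (log2 level 7.45 to 7.56 with phenobarbital, against 7.83 to 8.00 in controls). Of the remaining lists, 1 of 10 microglia and macrophage markers rose and 4 fell, 1 of 11 eye and diencephalon markers fell, and none of 9 ventral telencephalon and 4 neural crest markers passed (limma; the background is 16.7%).

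The wider pathway was read from lists of 60 other genes, of which 39 passed the filter, 4 rose, 3 fell and 32 did not pass. The share called was 17.9%, close to the 16.7% of all names, and the median difference was -0.18. Among 8 RXRs and co-regulators, 1 rose and 1 fell, with a median of -0.020. Ncor1, a corepressor that RARs hold when no ligand is bound, read 1.62, 1.56 and 2.13 with phenobarbital, against -0.54, -0.46 and -0.57 in controls. This is a rise of 2.30 ± 0.17 (SE; adjusted p = 0.00225) with groups far apart, but its other probe gave 0.27 ± 0.13 (adjusted p over every probe 0.187). The Ncor1 call held in all 20 alternatives, with a difference of 1.28 for the mean of its probes. Ncoa3, a coactivator, fell by 0.39 on the log2 scale (adjusted p = 0.0383). Its levels were 1.67, 1.59 and 1.58 with phenobarbital, against 2.03, 2.00 and 1.98 in controls. The dimmer Ncoa3 probe moved the opposite way, by 0.81 ± 0.11 (adjusted p over every probe 0.00977), so the gene has no single direction here, and the call held in 7 of 20 alternatives.

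Of 23 genes of retinoid supply, 15 were tested, 3 rose and none fell, with a median of -0.12. Over all names, 16.7% were called (6.24% higher with phenobarbital), with a median of -0.16. Retsat, which saturates retinol, read -3.09, -3.04 and -2.90 with phenobarbital, against -4.60, -3.97 and -4.12 in controls. Dhrs4, a carbonyl reductase that acts on retinaldehyde, read -0.094, -0.25 and -0.60 with phenobarbital, against -1.75, -2.43 and -1.30 in controls. Neither gene's groups overlapped, and the differences were 1.22 ± 0.18 (adjusted p = 0.0120) for Retsat and 1.51 ± 0.30 (adjusted p = 0.0253) for Dhrs4. Under normexp the Retsat difference was 0.52, and its call held in 17 of 20 alternatives. The Retsat call was lost with replicate number as a block (adjusted p = 0.0547) and without phenobarbital replicate 2 or 3 (0.0535 and 0.0520). The Dhrs4 call held in 14 of 20. It was lost with replicate number as a block (adjusted p = 0.0887), with the filter dropped (0.0580) and without control replicate 1 or any 1 phenobarbital array (up to 0.0864). The third was Ttr, which carries retinol-bound Rbp4 and is also a choroid plexus marker (4.95 ± 1.04, adjusted p = 0.0292), while Rbp4 itself did not pass. Control replicate 3 read 0.73 for Ttr, against -2.35 and -3.46 on the other controls, and the difference was 6.17 without it and 4.07 without control replicate 2. The Ttr call held in 14 of 20 alternatives. It was lost with replicate number as a block (adjusted p = 0.0692), with the filter dropped (0.0650) and without control replicate 1 or any 1 phenobarbital array (up to 0.0935). The enzymes that make retinoic acid from retinaldehyde, named after their values were seen, did not pass: Aldh1a1 at 0.0075 ± 0.47, Aldh1a2 at -0.26 ± 0.43 and Aldh1a3 at -0.70 ± 0.22 (adjusted p = 0.992, 0.697 and 0.0733). Of these, Aldh1a3 had groups apart, at 1.59, 1.30 and 0.98 with phenobarbital, against 2.10, 1.63 and 2.24 in controls.

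Among the 4 genes of clearance and delivery, 3 were tested and Ppard, a nuclear receptor reported to respond to retinoic acid as well, fell by 0.42 (adjusted p = 0.0420). It read 0.92, 0.96 and 0.76 with phenobarbital, against 1.34, 1.27 and 1.28 in controls, with no overlap. The call held in 8 of 20 alternatives. It was lost, among others, with each array left out in turn (adjusted p from 0.0516 to 0.138), under median scaling (0.140) and with the slide as a random block (0.0524). Cyp26a1, a further retinoic acid hydroxylase and a sensitive target of the pathway in embryos, was well above background on all 3 phenobarbital arrays and on 1 of 3 controls. It thus entered the test only through the phenobarbital group, and its difference of 0.29 ± 0.13 is given as a value without weight. Cyp26c1 was not well above background on any array. Over all names, 16.7% were called, with a median of -0.16. Among 25 genes known to respond to retinoic acid, 13 were tested and 1 passed, with a median of -0.34. This was Tbx1, a T-box factor of pharyngeal development, which fell by 0.80 on the log2 scale (limma, adjusted p = 0.0262). The list was not split by direction of response, so neither this fall nor the median gives a direction of retinoic acid signalling. Tbx1 read -0.45, -0.93 and -0.93 with phenobarbital, against -0.051, 0.13 and -0.0044 in controls. The call held in 13 of 20 alternatives and was lost, among others, with the slide as a fixed block (adjusted p = 0.186), with the filter dropped (0.0600) and without control replicate 1, control replicate 3, phenobarbital replicate 2 or phenobarbital replicate 3 (up to 0.0891). The Hox genes of that list did not pass the filter on dim signals.

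**Figure D4:**
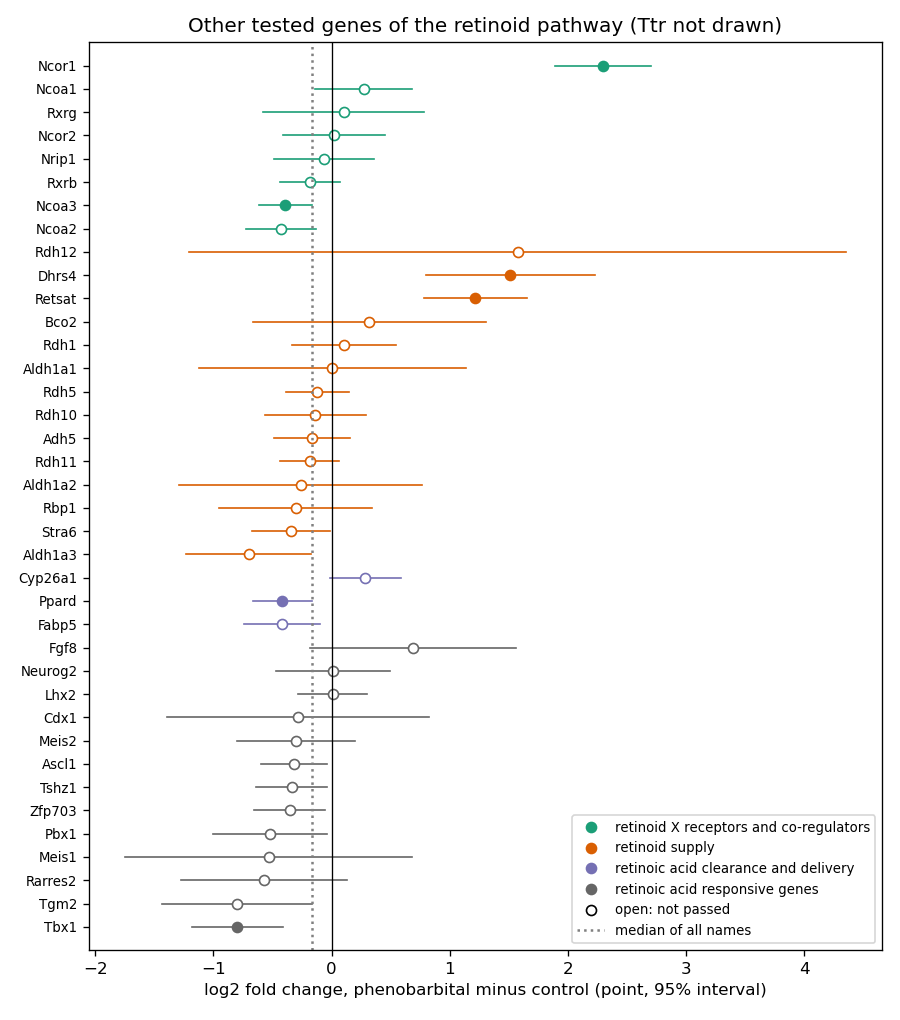
Difference between the groups (x axis, log2 fold change, phenobarbital minus control, with its 95% interval) for the tested genes of the 4 wider lists, coloured by list, filled where the adjusted p is below 0.05, with a dotted line at the median of all names. Ttr, at 4.95, is left out to keep the axis readable, Ncor1 lies farthest to the right among the filled points, and most genes are open.

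Across the 6 arrays, the named genes whose levels ran most like Rxra, among 15168 symbols, were Aifm2 (Pearson's r 0.999), Mau2 (0.999) and Alg12 (0.997). Their own differences were 1.10, 0.84 and 1.15. All share the same arrays and were picked as the highest of many, so these values are a description.

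The Rxra call varied with the setting. Over 20 alternatives its difference stayed positive, from 0.26 to 0.60, and 8 passed the threshold, with adjusted p-values from 0.0124 to 0.232. With each array left out in turn, the call held when control replicate 2 was left out (0.55, adjusted p = 0.0439) and was lost for each of the other 5 arrays (adjusted p up to 0.117). Crabp2 was also negative throughout, from -0.95 to -0.39, and Dhrs3 from -0.56 to -0.14. Rarg ran from -0.37 to -0.17 and Rara from 0.042 to 0.36.

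**Figure D5:**
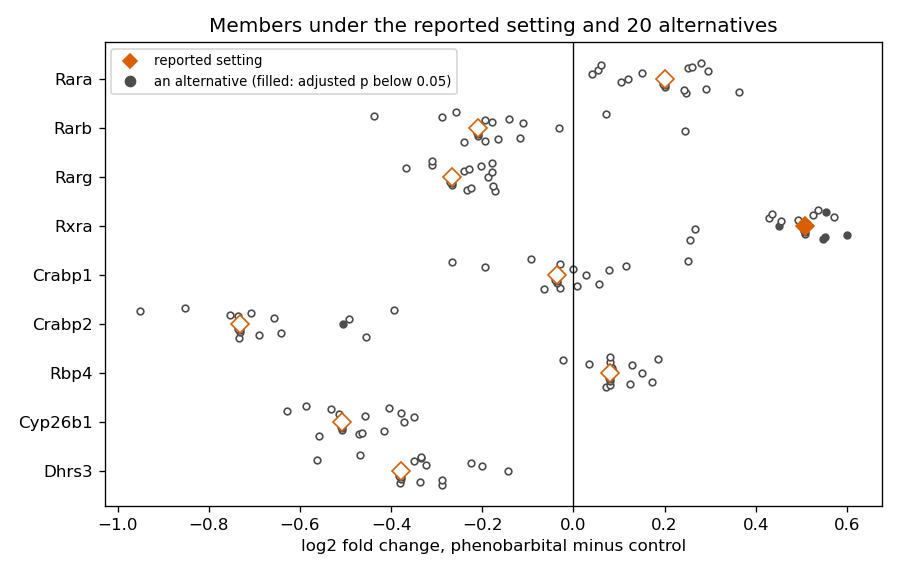
Log2 fold change of each gene (x axis, phenobarbital minus control) under the reported setting (diamonds) and 20 alternatives (circles), filled where the adjusted p is below 0.05. Rxra stays above 0 with 8 of 20 alternatives filled, and Crabp1, Rarb and Rbp4 cross 0.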

How the data were processed

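Per the file headers, the authors quantified 1-colour arrays with version 10.7.3.1 of Agilent Feature Extraction (the submitters' processing notes give 10.7), and the array annotation is on build mm9. Deposited are spot values of processed intensity on a linear scale, without scaling between arrays. Per the labels' protocols, 0.2 µg RNA was labelled with Cy3. The authors' deposited log2 value table was an alternative: its differences between arrays matched the scanner signals to 1.78e-06 for 99% of probes, and its centring constant is unknown. Its column medians were -0.0172, -0.086 and -0.0818 in phenobarbital and 0.0821, 0.101 and 0.0908 in control replicates 1 to 3.

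From the intensities, log2 values minus each array's 75th percentile over non-control spots were computed, outlier spots (98 to 198 of 62976 per array) were set to missing and replicate spots averaged. The 75th percentile was 1803 to 1862 on phenobarbital and 1116 to 1291 on control arrays, and 62.8% to 68.7% of spots were well above background. Probes well above background on every array of a group, with at least 2 values per group, were kept, and the brightest probe of a gene was tested. Of 55681 probes, 26582 were named by accession through RefSeq (GRCm38.p6). Groups were fitted with limma 3.58.1 in R 4.3.3, two-sided, with Benjamini-Hochberg adjustment over all names and a threshold of 0.05. The fit was tested on simulated data that held no slide or array effects, so that test does not bear on the slides of these arrays.

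The members and lists were chosen with earlier results of these data known. All members were named, with the wider genes past the threshold and the 3 symbols most like a called member. Alternatives changed background correction (normexp, on median spot signals since the files hold no means), scaling, filter, probes, prior, weights, source and blocks. Replicate numbers did not pair the samples (correlations of same-numbered deviations 0.0778, -0.16 and -0.347). The number of arrays limits the precision.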

Additional observations from a re-analysis of the deposited data

How the results depend on the processing

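The 1 member called became 0 under normexp, without the filter on dim probes, with the mean of several probes, a trended robust prior, the replicate block and the slide as a fixed or random block, became 2 with array weights, and ran from 0 to 1 with each array left out. Tested probe by probe, the 1 call became 0 under normexp, the 75th percentile over detected probes, no filter, the trended prior, the replicate block and either slide block, 2 with array weights, and 0 to 1 with arrays left out. Of all names, 4234 were called, against 2470 with median scaling, 2716 with the percentile over detected probes, 1486 with no filter, 9438 with array weights, 295 with the replicate block, 771 with the slide as a fixed block and 881 to 4406 with arrays left out. Rises made up 37.3% of calls, against 54.6% under quantile normalization, 58.4% under median scaling, 59.4% over detected probes and 24.2% under normexp. The 7 calls of the wider genes became 2 with no filter, 17 with array weights, 1 with the replicate block, 4 with the fixed slide block and 1 to 10 with arrays left out. Signs turned for Crabp1 (0.0071 with median scaling, 0.055 over detected probes, 0.028 with array weights, 0.078 with the fixed slide block, -0.27 to 0.25 with arrays left out), Rarb (0.24 as the mean of probes, -0.44 to 0.071 with arrays left out), Rbp4 (-0.022 to 0.19 with arrays left out) and Ncoa3 (0.21 as the mean of probes). The cause of these shifts was not tested, beyond the fewer arrays or more names that a setting brings. The median of all names ran from -0.21 to -0.063 across settings. Control replicate 1 shared slide 1 with all phenobarbital arrays, and control replicates 2 and 3 had a slide each.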

Other observations

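Rdh12, an enzyme that interconverts retinaldehyde and retinol, was picked out after its values were seen. It read 3.94, 4.44 and 4.30 with phenobarbital, against 4.02, -0.26 and 4.20 in controls. All arrays but control replicate 2 lay within a narrow band, and the difference of 1.57 ± 1.16 (SE) did not pass (limma, adjusted p = 0.367).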
